A study of Mus musculus with 8 samples.

Results

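The genes of sarcoplasmic reticulum calcium cycling were described by 10 members chosen by gene symbol: the pump Atp2a2 with its inhibitors Pln and Sln, the release channel Ryr2 with its junctional partners Trdn, Asph and Jph2, the calcium-storing proteins Casq1 and Casq2, and the exchanger Slc8a1. All 10 were among the 15358 genes of the deposited table and all passed the filter on low counts, which kept 14887 genes. The values are RNA-seq counts, and the tissue was the whole ventricle of mouse hearts taken at embryonic day 14.5. Control embryos carried floxed Lem2 alleles alone (Lem2 f/f, gene symbol Lemd2), and conditional knockout (cKO) embryos carried the same floxed alleles with the element labelled XMLC2V. The labels do not spell out XMLC2V or the cells in which it acts, and no cell sort is described, so the RNA is that of the whole ventricle. Lem2 is a protein of the inner nuclear membrane, and the comparison asks which of these genes differ in the ventricle once it is targeted.

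In a cardiomyocyte, calcium that enters through the plasma membrane opens ryanodine receptors of the sarcoplasmic reticulum, and the calcium they release drives contraction. The SERCA pump then returns calcium to the store, where calsequestrin binds it, while the sodium-calcium exchanger carries the rest out of the cell. Phospholamban holds the pump back until it is phosphorylated by protein kinase A or by the calmodulin-dependent kinase, and in this way sets how fast the heart relaxes. In the embryonic heart the reticulum is still sparse, and more of the calcium passes through the plasma membrane than in the adult.

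There were 3 control libraries and 4 from cKO embryos, each holding 28921922 to 39351262 counts. Lemd2 lay at 36.8, 34.4 and 36.4 CPM (counts scaled to the TMM-normalised library size) in control replicates 1 to 3 and at 18.5, 17.1, 16.3 and 13.7 CPM in cKO replicates 1 to 4, so the targeted gene was lower in each cKO library (log2 fold change -1.13, SE 0.086, adjusted p = 0.00135). The cKO replicates 3 and 4 expressed Xist, the RNA of the inactive X chromosome (1324 and 1102 CPM), while the other libraries held at most 0.504 CPM and expressed the Y-linked gene Ddx3y at 80.4 CPM or more. The titles carry the codes F169 and F191, which the labels do not explain, and F191 holds 1 library of each group. Of the 9 cardiomyocyte markers, among them Tnnt2, Actn2, Myh7 and Nkx2-5, all were detected, from 149 ± 2.28 CPM for the transcription factor Nkx2-5 to 15518 ± 694 CPM for the myosin heavy chain Myh7 in control (SD, n = 3). In bulk tissue, fewer cells of a type and less RNA per cell cannot be told apart.

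The sequences shown first are those of the pump's inhibitors, because each is a very short peptide read from a short frame, and the windows before the starts of Pln and Ryr2, the members whose groups did not overlap. The coding sequence of phospholamban (GENCODE vM21, GRCm38, chr10:53343864-53344022, plus strand) has 52 codons before its stop and takes 5.76% of the gene's 2759 exonic bases. That of sarcolipin (chr9:53853473-53853568, plus strand) has 31 codons and takes 7.28% of 1318 exonic bases, so most of the exonic length of either gene lies outside its coding frame. Capitals mark the start and stop codons.
Pln coding sequence: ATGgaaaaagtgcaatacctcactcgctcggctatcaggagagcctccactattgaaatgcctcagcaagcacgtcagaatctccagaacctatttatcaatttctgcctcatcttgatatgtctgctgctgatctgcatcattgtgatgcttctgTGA
Sln coding sequence: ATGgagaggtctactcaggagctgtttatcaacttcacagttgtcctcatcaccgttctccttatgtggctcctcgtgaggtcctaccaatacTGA

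The 250 bases before the RefSeq start of Pln (GRCm38.p6, chr10:53337436-53337685, plus strand) and of Ryr2 (chr13:12106946-12107195, minus strand) are given with GATA and its reverse TATC in capitals, the letters read by cardiac GATA factors. RefSeq windows were found for 6 of the 10 members. The deposited span of Ryr2, given below, ends at 12106946, which is also the edge base of its window. The same holds for Casq1, Slc8a1 and a window of Jph2, all on the minus strand. On the plus strand, the windows of Pln and Casq2 end just before the deposited starts. The shared base thus goes with the strand and is not particular to Ryr2. Which coordinate is shifted was not settled, so the printed bounds of the Ryr2 window may be off by a base.
Pln upstream: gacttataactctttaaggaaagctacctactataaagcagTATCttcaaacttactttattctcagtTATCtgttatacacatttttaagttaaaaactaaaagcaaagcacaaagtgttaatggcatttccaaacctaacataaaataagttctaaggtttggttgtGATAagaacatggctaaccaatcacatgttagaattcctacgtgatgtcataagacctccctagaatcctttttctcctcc
Ryr2 upstream: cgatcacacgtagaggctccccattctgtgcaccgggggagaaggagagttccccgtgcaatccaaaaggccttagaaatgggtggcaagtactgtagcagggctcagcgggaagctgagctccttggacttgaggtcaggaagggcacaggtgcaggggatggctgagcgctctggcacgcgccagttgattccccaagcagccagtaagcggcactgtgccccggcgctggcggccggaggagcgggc

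Pln held 3 matches to GATA on either strand, with their first bases 209, 182 and 81 bases before the start, and Ryr2 held 0. Of 32817 windows of the same length, 53.6% held at least 1 match and 9.62% at least 3. Among the members with a window, Slc8a1 also held 3, and Casq1, Casq2 and Jph2 held 1. Pln further held 1 CCAAT (in 33.8% of all windows, both strands searched) and 1 E-box CANNTG (66.2%), and Ryr2 held 0 and 2 of these. These matches describe the letters of the windows and say nothing of binding.

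Phospholamban was the only member that edgeR called lower, and its difference from Ryr2 was not tested. Pln (chromosome 10, 53337686 to 53346000, plus strand, mm10 as deposited) lay at 1746, 1633 and 1666 CPM in control replicates 1 to 3 and at 1409, 1466, 1403 and 1357 CPM in cKO replicates 1 to 4. Each cKO library was below each control, the highest cKO at 1466 and the lowest control at 1633 CPM. On the log2 scale the change was -0.26 (SE 0.040, 95% interval -0.35 to -0.17, adjusted p = 0.0238; edgeR's quasi-likelihood fit, Benjamini-Hochberg over all genes, as for every adjusted p unless another tool is named), a level lower by 16.2% on the fitted scale (the percent change was -16.2, interval -21.3 to -10.9). Pln was 1 of 162 genes called in either direction, with 0.322% of all genes tested called lower and 0.766% called higher. By average level it was the second of the called genes, after the imprinted gene Mest, and 14 of the 48 genes called lower had a smaller change. Its within-group spread was small, with a coefficient of variation of 3.45% in control and 3.18% in cKO.

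**Figure D1:**
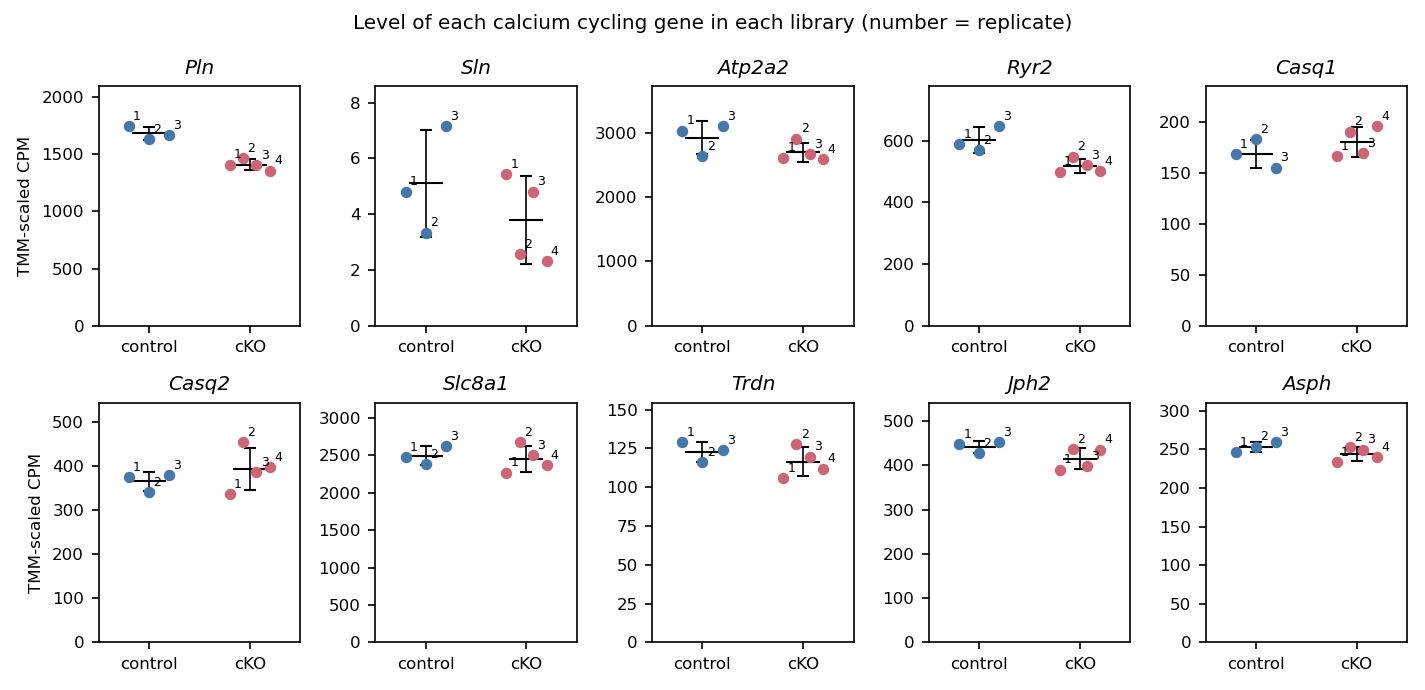
Level of each of the 10 calcium cycling genes (TMM-scaled CPM, axis from 0) in the 3 control and 4 cKO libraries, with the replicate number beside each point and the mean ± SD of the group in black. For Pln the cKO libraries sit between 1357 and 1466 CPM, all below the controls, and the groups also stand apart for Ryr2, while they overlap for the other 8 genes.

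The direction of Pln held in every alternative run, while its call did not. Cep85l, which spans Pln on the opposite strand, lay between 7.55 and 8.97 CPM in all libraries, against a mean of 1526 CPM for Pln, and the counting strand is not stated. The log2 fold change of Pln stayed between -0.28 and -0.22 in 17 alternatives, and it was called in 8 of them. With the title code as a term it was called (log2 -0.26, adjusted p = 0.0256), as were 1.44% of all genes. The call held without cKO replicate 1 (adjusted p = 0.0414) or 4 (0.0474) and was lost without control replicate 1 (0.0856), 2 (0.0744) or 3 (0.0865) or cKO replicate 2 (0.0622) or 3 (0.0674), all from edgeR. Leaving out both libraries that express Xist gave a log2 value of -0.23 (SE 0.052, edgeR adjusted p = 0.195), and a fit that includes the Y-linked level gave -0.22 (SE 0.051, edgeR adjusted p = 0.17). Within F169 the mean went from 1690 CPM in 2 controls to 1426 CPM in 3 cKO libraries (log2 fold change -0.24, edgeR adjusted p = 0.12). Within F191 the single control lay at 1666 CPM and the single cKO at 1357 CPM, which allows no test. Of this pair only the cKO expresses Xist and only the control Ddx3y, so genotype cannot be told apart from these there.

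Values of the cardiomyocyte markers stand beside those of Pln. The summed level of the 9 markers ran from 33024 to 35888 CPM in control and from 29267 to 34313 CPM in cKO, with overlap, and 7 of the 9 had a negative log2 fold change (median -0.06). In a setting added after the values were seen, Pln counts were 4.86 ± 0.193% of the summed marker counts in control and 4.36 ± 0.352% in cKO (SD, n = 3 and 4). That is a log2 difference of -0.16, with overlapping groups (exact two-sided permutation p = 0.0857 over 35 arrangements, whose smallest p is 0.0286, unadjusted). The part of cardiomyocyte content in the fall of Pln was not tested beyond this ratio.

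The pump itself did not pass the test. Atp2a2, which encodes SERCA2, the calcium pump of the cardiac reticulum (chromosome 5, 122453513 to 122502226, minus strand), lay at 3032, 2637 and 3103 CPM in control and at 2611, 2906, 2669 and 2585 CPM in cKO replicates 1 to 4. Control replicate 2 lay within the cKO range, so the groups overlap. Between the groups the log2 difference was -0.12 (SE 0.062, 95% interval -0.26 to 0.02, edgeR adjusted p = 0.359). It was -0.05 within F169, -0.07 without control replicate 3 and -0.19 without control replicate 2.

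Sln encodes sarcolipin, the pump inhibitor that in mice is abundant in atria and scarce in ventricle (chromosome 9, 53850251 to 53853850, plus strand). It lay at 4.81, 3.34 and 7.16 CPM in control and at 5.44, 2.57, 4.81 and 2.33 CPM in cKO. The libraries of each group spread more than 2-fold, and control replicate 3 was the highest of all. Its log2 fold change was -0.44 with a wide 95% interval, from -1.19 to 0.30 (SE 0.33, edgeR adjusted p = 0.522), so a change of Sln was not detectable at this spread. Within F169 it turned to 0.06 (SE 0.31). It was -0.12 without control replicate 3, -0.29 and -0.26 without cKO replicates 2 and 4, and -0.67 and -0.68 without cKO replicate 1 and control replicate 2. The 7 atrial markers, in which Myl7 and Myl4 lead, summed to 1648 to 1854 CPM in control and 1785 to 1945 CPM in cKO. Of these, 0 were called by edgeR or limma-voom (each 1.09% of all genes) or by DESeq2 (4.68% of its genes). At an unadjusted p under 0.05 there were 0, against 17.9% of all genes.

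The ratio of inhibitor to pump does not depend on library scaling. There were 0.576, 0.619 and 0.537 Pln counts per Atp2a2 count in control replicates 1 to 3, and 0.540, 0.504, 0.526 and 0.525 in cKO replicates 1 to 4. The cKO libraries were lower on average, yet control replicate 3 lay below cKO replicate 1. The log2 ratio differed by -0.14 (exact two-sided permutation p = 0.0571, 0.171 after Benjamini-Hochberg adjustment over 3 ratios). That Pln fell was known when this ratio was chosen. Slc8a1 counts per Atp2a2 count were 0.816, 0.904 and 0.847 in control and 0.869, 0.919, 0.939 and 0.917 in cKO, a log2 difference of 0.09 (exact permutation p = 0.143, 0.214 after adjustment over the 3 ratios). The ratio thus lay higher on average in cKO, with control replicate 2 above cKO replicate 1.

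**Figure D2:**
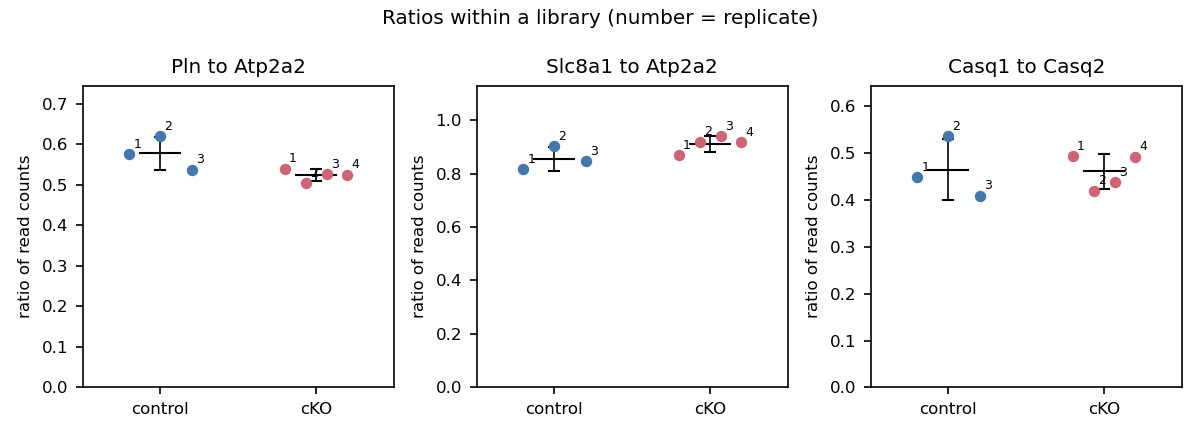
Read-count ratios within each library (axis from 0) for Pln to Atp2a2, Slc8a1 to Atp2a2 and Casq1 to Casq2, with replicate numbers and the mean ± SD of each group. The groups overlap in all 3 panels, with Pln to Atp2a2 at 0.537 to 0.619 in control and 0.504 to 0.540 in cKO.

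Among the genes of calcium release, Ryr2 lay closest to a call. Ryr2 encodes the cardiac ryanodine receptor, the release channel (chromosome 13, 11553103 to 12106946, minus strand), and lay at 589, 569 and 647 CPM in control and at 500, 548, 519 and 501 CPM in cKO. Each cKO library was below each control, a separation that 8.28% of all genes tested show in this direction and 8.67% in the other. This is a log2 fold change of -0.22 (SE 0.053, 95% interval -0.34 to -0.10), with an unadjusted p of 0.00209 that did not pass over all genes (adjusted p = 0.0825). DESeq2 called it (DESeq2 adjusted p = 0.00337), as it did 1.8% of its genes in this direction and 2.88% in the other. Within F169 the log2 fold change was -0.15 (edgeR adjusted p = 0.291). Within F191, where only the cKO expresses Xist, the levels were 647 CPM in the control and 501 CPM in the cKO. Relative to the summed cardiomyocyte markers the log2 difference was -0.12, with overlapping groups.

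The junctional partners of the channel did not pass. Trdn encodes triadin, which anchors calsequestrin to the channel (chromosome 10, 33083483 to 33476710, plus strand). Its levels of 129, 116 and 124 CPM in control and 106, 128, 120 and 112 CPM in cKO overlap, and its log2 fold change was -0.08 (SE 0.063). Asph (chromosome 4, 9449085 to 9669345, minus strand) encodes the aspartate beta-hydroxylase together with junctin, a junctional protein read from the same gene, so whole-gene counts do not separate the products. It lay at 246, 253 and 259 CPM in control and at 234, 253, 249 and 240 CPM in cKO (log2 -0.05, SE 0.040). Jph2 encodes junctophilin 2, which holds the reticulum to the plasma membrane (chromosome 2, 163336242 to 163397994, minus strand). Its levels were 448, 427 and 452 CPM in control and 390, 436, 399 and 436 CPM in cKO, where replicates 2 and 4 lay inside the control range (log2 -0.09, SE 0.049). The 95% intervals were -0.22 to 0.06 for Trdn, -0.14 to 0.04 for Asph and -0.20 to 0.02 for Jph2. With 1 library left out, Trdn ran from -0.12 (without cKO replicate 2) to -0.04 (without cKO replicate 1), and Asph from -0.07 (without control replicate 1) to -0.03 (without cKO replicate 1). The difference of these genes from Pln was not tested. Genes that overlap Trdn and Asph on the opposite strand, D830005E20Rik and Clvs1, had means of 0.517 and 1.00 CPM.

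The calsequestrins were the 2 members with a positive log2 fold change, and neither passed. Their sizes depended on single libraries. That of Casq1 was 0.0010 within F169 and ran from 0.04 without control replicate 3 to 0.16 without control replicate 2, and was 0.06 without cKO replicate 4. That of Casq2 ran from 0.04 without cKO replicate 2 to 0.18 without cKO replicate 1, and was 0.06 without control replicate 2. Casq2, the cardiac form (chromosome 3, 102086415 to 102146513, plus strand), lay at 375, 341 and 379 CPM in control and at 336, 453, 387 and 397 CPM in cKO (log2 0.11, SE 0.086, edgeR adjusted p = 0.548). Both the highest and the lowest library were cKO. Casq1, the form best known from fast skeletal muscle (chromosome 1, 172209894 to 172219896, minus strand), lay at 168, 183 and 155 CPM in control and at 166, 190, 170 and 196 CPM in cKO (log2 0.10, SE 0.071, edgeR adjusted p = 0.511). Markers of skeletal muscle were near 0, with the myogenic factor Myog at 0.597 ± 0.180 CPM and the fast myosin light chain Mylpf at 2.64 ± 0.399 CPM in control (SD, n = 3), and the 4 that were tested summed to 6.96 to 8.27 CPM over all libraries. Myod1, Myf5, Myf6, Pax7 and Pvalb have no row among the genes used here, and Myh3 was under the filter. There were 0.449, 0.536 and 0.410 Casq1 counts per Casq2 count in control and 0.494, 0.420, 0.439 and 0.493 in cKO, a log2 difference of -0.01 (exact permutation p = 1). Relative to the summed cardiomyocyte markers, in which Myh7 was the largest term, Casq2 was 1.05 ± 0.0205% in control and 1.21 ± 0.0782% in cKO (SD, n = 3 and 4). On that scale each cKO library was above each control (exact permutation p = 0.0286, unadjusted and the smallest the design allows, with 10 members compared in this way).

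Slc8a1 encodes the sodium-calcium exchanger NCX1 of the plasma membrane (chromosome 17, 81373105 to 81738388, minus strand). It lay at 2474, 2383 and 2628 CPM in control and at 2270, 2672, 2507 and 2370 CPM in cKO. The cKO libraries span the whole control range, with replicate 2 above and replicates 1 and 4 below it. The log2 fold change was -0.02 (SE 0.058, 95% interval -0.15 to 0.11, edgeR adjusted p = 0.876), and it took a positive sign without control replicate 3 (0.02), without cKO replicate 1 (0.01) and within F169 (0.03).

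**Figure D3:**
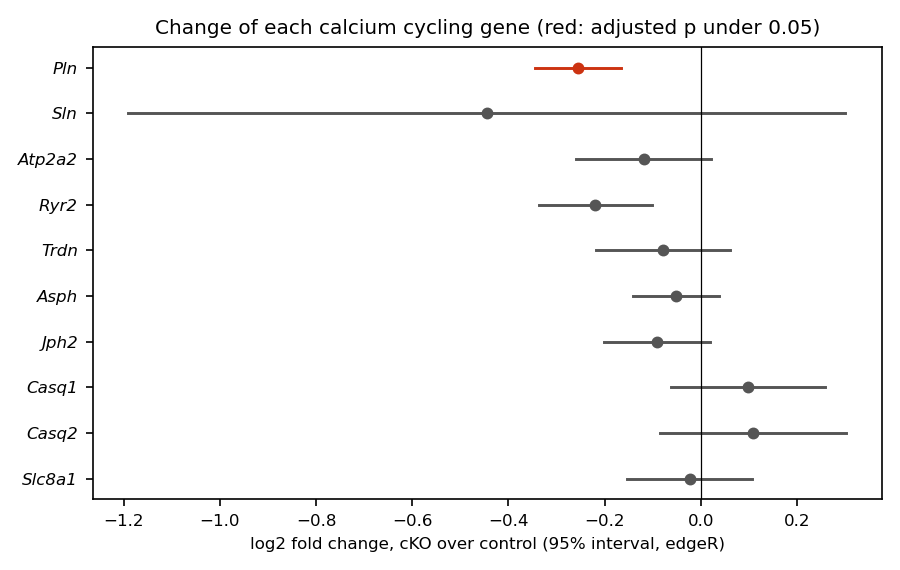
Log2 fold change of cKO over control for each member, ordered by role from the pump's inhibitors to the exchanger, with the 95% interval of edgeR's quasi-likelihood fit. Pln at -0.26 is the gene that passed the threshold, Ryr2 at -0.22 has an interval below 0 without passing over all genes, and the interval of Sln is the widest.

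Of the 10 members 1 was called lower and 0 higher by edgeR, where 1.09% of all genes were called in either direction. DESeq2 called 2 lower, Pln and Ryr2, with 4.68% of its genes called, and limma-voom called Pln alone. At an unadjusted p under 0.05 there were the same 2 genes of 10, both negative, with 8.5% of all genes at that level on the negative side, 9.4% on the positive side and 17.9% in all. Groups without overlap, which Pln and Ryr2 showed, were seen for 17% of all genes. The log2 fold change was negative for 8 of 10 members and for 52.1% of all genes, and the median was -0.08 for the members and -0.01 for all genes tested. Within the cKO group, replicate 2 was the highest library for 8 of the 10 members, and replicate 1 the lowest for 7. Replicate 1 also had the lowest summed cardiomyocyte markers (29267 CPM) and replicate 2 the highest (34313 CPM).

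Levels of different genes were compared per kilobase of exon, with lengths from GENCODE vM21. In control ventricle the order was Pln at 609.6 ± 21.0 CPM per kb, Atp2a2 at 554 ± 47.6, Casq2 at 142 ± 8.11, Slc8a1 at 134 ± 6.65, Jph2 at 104 ± 3.11, Casq1 at 91.4 ± 7.48, Ryr2 at 33.0 ± 2.23, Asph at 20.9 ± 0.533, Trdn at 15.7 ± 0.821 and Sln at 3.87 ± 1.46 CPM per kb (SD, n = 3). With these lengths phospholamban and its pump led the set, and sarcolipin was the lowest. The control ranges of Casq2 (133 to 148) and Slc8a1 (128 to 141) overlap. Both genes were read in the same libraries, and their difference within a library was not tested. With the longest transcript in place of all exons, Asph (37.7 ± 0.964) and Ryr2 (35.8 ± 2.41) changed places and the other ranks held. Shorter transcripts were not tried and could change the order. The shortest coding transcript of Slc8a1 has 2913 bases, against 18620 for all its exons. In cKO ventricle Pln lay at 511 ± 16.3 and Atp2a2 at 510.3 ± 27.8 CPM per kb (SD, n = 4). The place among all genes tested was taken from the average log2 CPM, without scaling to length, which favours long genes. On that scale the 9 members other than Sln lay above at least 86.9% of them, and Sln above 23.1%.

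Around these members, 5 wider lists held 68 tested genes. Of these edgeR and limma-voom called 0, where each called 1.09% of all genes, so the count lies near that share. Of the pump's other relatives and partners, 7 were tested, with 2 at an unadjusted p under 0.05, against 17.9% of all genes. DESeq2 called 0 of the 7, against 4.68% of its genes, and the median log2 fold change was 0.02. That median had a negative sign within F169 (-0.02) and without cKO replicate 2 or control replicate 1 or 2 (each -0.01). S100a1, a calcium sensor that binds the pump and the release channel, had -0.20 (SE 0.061), and Sri, the sorcin that binds the release channel, had 0.08 (SE 0.033). The other pump genes were low beside Atp2a2, with Atp2a1 at 0.453 ± 0.202 and Atp2a3 at 6.34 ± 0.593 CPM in control (SD, n = 3). Strit1, Mrln, Erln and Arln, which encode further micropeptides that bind SERCA pumps, were not matched to a row and are not analysed here.

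In the list of kinases, phosphatases and cAMP enzymes around phospholamban, 13 of 18 had a negative log2 fold change (median -0.03; 52.1% of all genes were negative), 5 had an unadjusted p under 0.05 (17.9% of all genes), and DESeq2 called Camk2a and Camk2d lower (1.8% of its genes). Camk2a, a calmodulin-dependent kinase subunit, had 204 ± 11.4 CPM in control libraries and 178 ± 9.02 CPM in cKO (SD, n = 3 and 4; log2 -0.19, SE 0.051, edgeR adjusted p = 0.0999). Camk2d, the main cardiac subunit, chosen after its value was seen, had -0.16 (SE 0.046, edgeR adjusted p = 0.11) and Pde4b, a cAMP phosphodiesterase, -0.14 (SE 0.038). The catalytic subunit Prkaca of protein kinase A, also chosen after its value was seen, had -0.03 (SE 0.039).

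Of 19 other release channel and junction genes, 5 had an unadjusted p under 0.05, against 17.9% of all genes (median log2 0.02). Tmem38b, a counter-ion channel of the reticulum, had 0.19 (SE 0.059) and the kinase Speg, which acts on junctional proteins, -0.18 (SE 0.056). The other ryanodine receptors were well below Ryr2 in CPM of control ventricle, with Ryr1 at 0.482 ± 0.0275 and Ryr3 at 22.9 ± 2.46 (SD, n = 3). Of 9 luminal and store-sensing genes 7 had a positive log2 fold change (median 0.08) and 4 an unadjusted p under 0.05, against 17.9% of all genes. DESeq2, which called 2.88% of its genes higher, called the chaperones Calr (0.20, SE 0.044) and Canx (0.17, SE 0.044) higher, while edgeR gave an adjusted p of 0.0678 and 0.0931.

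In the list of calcium entry and extrusion at the plasma membrane, 10 of 15 genes had a negative log2 fold change (median -0.11), against 52.1% of all genes. An unadjusted p under 0.05 was seen for 6 of the 15, against 17.9% of all genes. The list also holds Mcu and Slc8b1, whose products act at the mitochondrial inner membrane and not at the plasma membrane. DESeq2 called Cacna1c, Cacna1g and Cacnb2 lower, as it did 1.8% of its genes. Cacnb2, the beta subunit of the L-type channel, had 54.9 ± 2.79 CPM in control libraries and 46.6 ± 2.64 CPM in cKO (SD, n = 3 and 4; log2 -0.24, SE 0.053, edgeR adjusted p = 0.0718). Cacna1g, a T-type channel, had -0.28 (SE 0.072, edgeR adjusted p = 0.0928). Cacna1c, the pore of the L-type channel that triggers Ryr2, chosen after its value was seen, went from 293 ± 28.4 CPM to 247 ± 14.2 CPM (log2 -0.25, SE 0.067, edgeR adjusted p = 0.105), and each cKO library was below each control, as for 8.28% of all genes. The median of this list was -0.04 within F169.

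**Figure D4:**
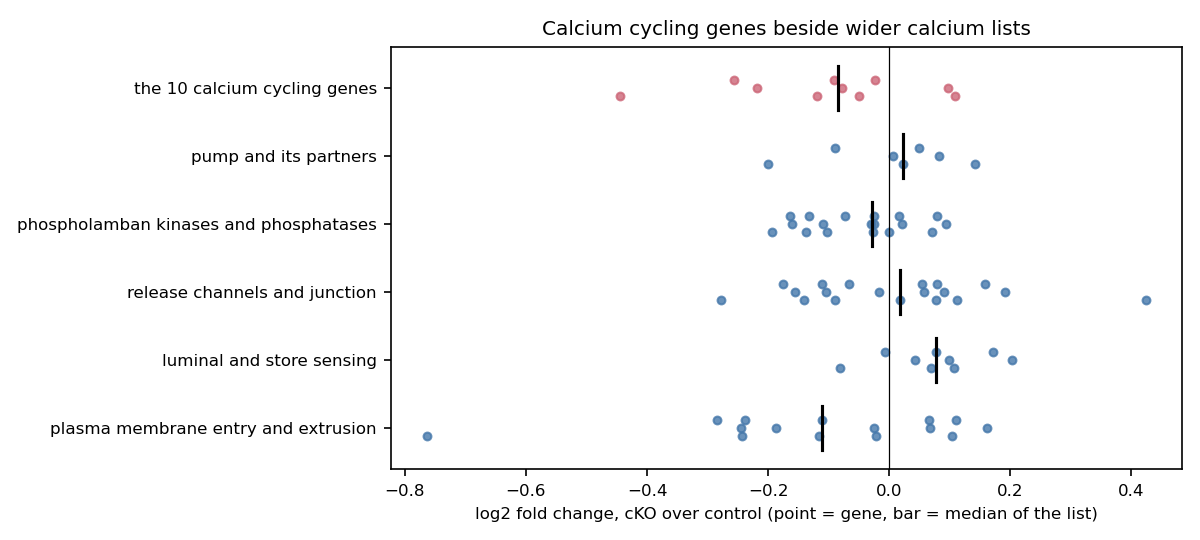
Log2 fold change of cKO over control for each gene (point) of the 10 calcium cycling genes and of 5 wider calcium lists, with the median of each list as a black bar. The medians run from -0.11 for plasma membrane entry and extrusion to 0.08 for luminal and store sensing, and no list lies wholly on either side of 0. The plasma membrane list also holds the mitochondrial genes Mcu and Slc8b1.

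Markers of other cells gave the following values beside these results. The 6 macrophage markers summed to 65.6 to 67.6 CPM in control and 77.7 to 88.4 CPM in cKO, with C1qb called higher by edgeR, and the 5 smooth muscle and pericyte markers to 940 to 1108 and 1112 to 1689 CPM. Both sums were higher in each cKO library than in each control. All 6 macrophage genes had a positive log2 fold change at an unadjusted p under 0.05, where 9.4% of all genes lie. The smooth muscle list was mixed. The actin Acta2, which the embryonic myocardium also expresses, made up most of its sum (808 ± 66.0 CPM in control and 1099 ± 212 in cKO; log2 0.44) and Tagln had 0.64, both at an unadjusted p under 0.05. Its smooth muscle myosin Myh11 had -0.53, at an unadjusted p under 0.05 in the other direction and near 1 CPM in cKO (1.06 ± 0.209), while the pericyte gene Rgs5 had -0.38 and Pdgfrb 0.11. Sums of the endothelial markers (941 to 1013 and 959 to 998 CPM), of the fibroblast and epicardial markers (3315 to 4014 and 3104 to 4132 CPM) and of the red cell markers (1987 to 3751 and 2463 to 2702 CPM) overlapped, although all 8 red cell genes had a negative value (median log2 -0.29, 0 called by edgeR, 1 at an unadjusted p under 0.05). The part of these markers in the results was not tested.

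The profiles nearest to Pln over the 7 libraries, by the root mean square difference of centred log2 CPM among 8598 named genes whose average log2 CPM was 4 or more, were those of Slc4a3 (0.0405), Stard8 (0.0438), Spice1 (0.0440), Dpf3 (0.0443) and Ptprk (0.0465). Because these genes were chosen for their likeness to Pln over the same libraries, their direction follows from the choice and is a description. Slc4a3, an anion exchanger of heart and brain, went from 53.0 to 45.1 CPM (log2 -0.23, SE 0.041). Dpf3, a chromatin reader of the BAF complex in heart and muscle, had a log2 value of -0.25 (SE 0.052). Of the members, Ryr2 was the nearest to Pln (0.0639, with 45 genes nearer), followed by Atp2a2 (0.0920, with 499 nearer), and Casq1 (0.209) and Casq2 (0.209) were farther, with Sln the farthest (0.500).

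**Figure D5:**
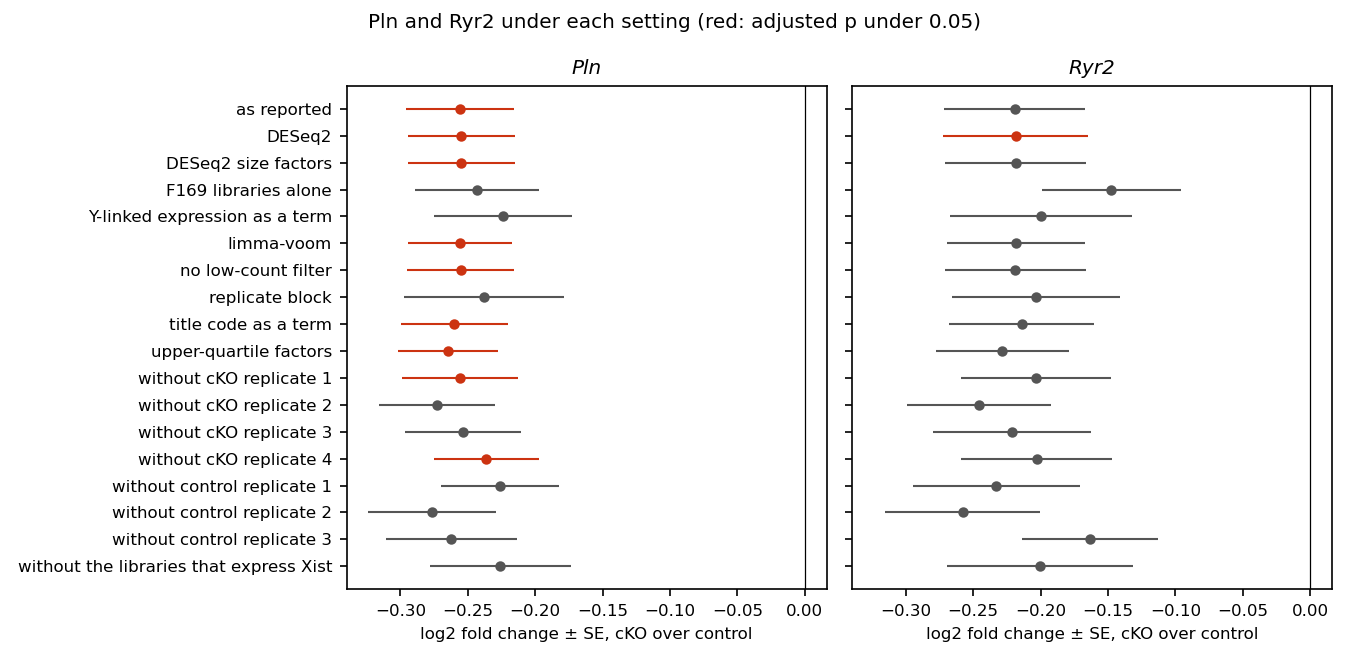
Log2 fold change ± SE of Pln and Ryr2 under the reported fit and 17 alternatives, with red marking an adjusted p under 0.05. The values of Pln lie between -0.28 and -0.22 and are called in 8 alternatives, and those of Ryr2 lie between -0.26 and -0.15 and are called by DESeq2.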

How the data were processed

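RNA from whole ventricle was made into libraries with a directional kit, per the labels' protocols. The authors deposited estimated counts per gene. Per the submitters' processing notes the tools included STAR 2.4.2a and HTSeq 0.6.1 and the build was mm10; the annotation and the strand setting of the counting are not given in the sources used here. Because 30.3% of the values were not whole (tolerance 1e-06), every deposited value was rounded for the count models. Columns were matched to samples by the code in the titles. The last column equalled the sum of the 7 libraries in 15358 genes and was not used, and control replicate 4 was not analysed here. The 10 members, the lists and the tests were chosen with earlier results of these data known.

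Genes were filtered with filterByExpr (minimum count 10; 14887 kept), scaled by TMM and tested with edgeR 4.0.16 (R 4.3.3) by the quasi-likelihood F-test, Benjamini-Hochberg adjusted over all genes, threshold 0.05. Levels are TMM-scaled CPM. Ratios of counts before rounding were compared by exact permutation, two-sided. The alternatives comprised DESeq2 1.42.0, limma-voom (limma 3.58.1), other scalings (size factors, upper quartile), no filter, the replicate number as a block, a term for the title code or for the Y-linked level, F169 alone, leaving out the libraries with Xist, and leaving out each library. Since the labels name no litter or animal, a p-value covers only the spread of these libraries, which may be technical among libraries alike in Xist and Ddx3y. The cKO libraries differ in these genes, so they are not all repeats of a single embryo. The number of embryos is not given. Named are the members, Lemd2, of each wider list called genes and otherwise the 2 smallest p, genes overlapping a member, the 5 profiles nearest to Pln, and markers. Other named genes (Camk2d, Prkaca, Cacna1c, Atp2a1, Atp2a3, Ryr1, Ryr3, Mcu, Slc8b1) were chosen after their values were seen.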

Additional observations from a re-analysis of the deposited data

How the results depend on the processing

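The number of genes called, 162 as reported, was 629 with DESeq2, 20 within F169, 20 with a Y-linked term and 17 without the libraries that express Xist. The number of members called, 1 as reported, was 2 with DESeq2 and 0 in the other 3 of these settings. Leaving out 1 library at a time gave 28 to 133 genes and 0 to 1 members, with 0 members without any 1 of the controls or without cKO replicate 2 or 3. Of called genes 70.4% were higher in cKO as reported and 61.5% with DESeq2.

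The labels state no pairing by replicate number, and replicate 3 carries the code F191 in control and F169 in cKO. Deviations of same-numbered samples had correlations of 0.0386, -0.0751 and -0.0791 over 14887 genes. With so few libraries these correlations cannot exclude a pairing. With the replicate block 13 genes and 0 members were called, the median of the plasma membrane list was -0.0519, and Pln had -0.24 (SE 0.059, edgeR adjusted p = 0.216). Paired differences of the log2 ratios were -0.14 for Pln to Atp2a2, 0.09 for Slc8a1 to Atp2a2 and -0.04 for Casq1 to Casq2.

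Signs turned within F169 for Sln (0.0611) and Slc8a1 (0.0337), and relative to cardiomyocyte markers for Asph (0.0427), Jph2 (0.00170), Slc8a1 (0.0690) and Trdn (0.0126). With 1 library left out Slc8a1 ran from -0.0637 to 0.0159. The log2 ratio of Casq1 to Casq2 ran from -0.0921 to 0.102, being positive without cKO replicate 2 or 3 or control replicate 2, and that of Pln to Atp2a2 from -0.190 to -0.0871, nearest to 0 without control replicate 2.

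The median of the release list was 0.0465 within F169 and -0.00530 with a Y-linked term, and that of the plasma membrane list -0.0361 within F169. With 1 library left out the medians ran from -0.0112 to 0.0423 for the pump list, 0.00773 to 0.0535 for the release list, 0.0624 to 0.1004 for the luminal list, -0.0674 to -0.0239 for the kinase list and -0.138 to -0.0484 for the plasma membrane list. The cause was not tested.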
